A study of Mus musculus with 12 samples.

Results

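The chemokine family of the mouse, 52 genes of 33531 in the expression table, was examined in 4 cell populations sorted from the large arteries of mouse embryos at embryonic day 11.5. Members were taken by symbol: ligands named Ccl or Cxcl with a number, receptors named Ccr or Cxcr with a number, and Cx3cl1, Cx3cr1 and Xcr1. This gave 34 ligands and 18 receptors. Chemokine genes with other names, such as Pf4, Ppbp and the atypical receptor Ackr3, are not members and are treated with the rest of the pathway. All embryos carried Tg(Ly6a-GFP), a transgene in which regulatory sequence of Ly6a (the gene for the stem cell antigen Sca-1) drives GFP, and came from C57BL/6 x 129S1/SVImJ F1 mothers and transgenic fathers. The dorsal aorta, umbilical and vitelline arteries of 122 embryos were dissociated. Hematopoietic cluster cells (HC) were sorted as CD31+ CD144+ ESAM+ c-Kit+ and endothelial cells (EC) as CD31+ CD144+ ESAM+ c-Kit-, and each was split by GFP. The sort yielded 53000 HC GFP+ cells, 413000 HC GFP- cells, 377000 EC GFP+ cells and 791000 EC GFP- cells, pooled into 3 biological samples per population, and poly(A) RNA of each pool was sequenced. The sort names proteins of endothelium and c-Kit, and the labels give no step that removes mature blood cells from the c-Kit+ gate.

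Chemokines are small secreted or membrane-tethered proteins that direct cell migration through receptors coupled to G proteins of the Gi class. Homeostatic members act in development: CXCL12 and its receptor CXCR4 keep hematopoietic stem cells in their niche and guide growing arteries. Inflammatory members, among them CCL2, CCL3, CCL4 and CXCL2, are made in bulk by macrophages and other activated cells and draw monocytes or neutrophils. CX3CL1 is tethered to the membrane of endothelial cells, and its receptor CX3CR1 marks monocytes and tissue macrophages.

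Expression was given as FPKM, fragments scaled to transcript length and library size, so levels can be compared between genes. Over all genes, each library totalled 555675 to 691948 FPKM, and the read depth behind the values is unknown. Markers of endothelium were present in all libraries: the 8 endothelial genes summed to 2248 to 2523 FPKM in HC GFP+, 1822 to 2445 in HC GFP-, 3147 to 3390 in EC GFP+ and 2036 to 2658 in EC GFP-. In the other lists, the 8 granulocyte markers summed to 29.9 to 45.6 FPKM in HC GFP+ and at most 14.3 elsewhere, the 7 lymphoid markers to at most 14.7, the 6 mast cell markers to at most 0.861 except for 6.43 in the third HC GFP+ pool, and the 6 epithelial markers to 21.9 to 59.0. The 8 progenitor markers, Cd34 among them, summed to 347 to 424 FPKM in HC GFP+, 223 to 310 in HC GFP-, 539 to 575 in EC GFP+ and 328 to 374 in EC GFP-. Most of each sum was Cd34, with 246 to 296, 181 to 266, 508 to 535 and 292 to 350 FPKM in the same order. Kit, the gene of the gate, had 33.2 to 39.2, 19.1 to 25.8, 13.3 to 14.5 and 12.6 to 18.6 FPKM. Of these 8 progenitor markers, 6 were called higher and 1 lower in HC GFP+ than in EC GFP+, against 8.21% and 6.09% of all tested genes. In HC GFP- over EC GFP-, 3 were higher and 1 lower, against 2.36% and 1.93%. Markers of macrophages followed the HC sort. The 10 macrophage genes (Csf1r, C1qa, C1qb, C1qc, Emr1, Mrc1, Fcgr1, Lyz2, Cd68 and Cd14) summed to 745, 274 and 1560 FPKM in HC GFP+, 819, 255 and 660 in HC GFP-, 18.2, 15.2 and 37.1 in EC GFP+, and 12.3, 15.4 and 18.3 in EC GFP-. Within HC the second pool of each GFP class was lowest and the third HC GFP+ pool was highest. None of the 10 was listed at 0 in any library. All 10 were higher in HC than in EC, in both GFP classes (limma, adjusted p under the threshold of 0.05). The shares of all tested genes higher in HC were 8.21% among GFP+ and 2.36% among GFP-. Within HC, 0 of 10 passed by GFP, against 4.26% of all tested genes. With sums that spread this widely over 3 pools, that does not show equal levels. The part of these markers in the results that follow was not tested. In such bulk samples, fewer cells of a type and less RNA per cell cannot be told apart.

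Of the 52 members, 20 reached 1 FPKM in at least 3 of the 12 libraries and were tested, 16 ligands and 4 receptors. In the summed level of all ligands, HC libraries stood high except for the second pools: 272, 121 and 492 FPKM in HC GFP+, 286, 96.2 and 232 in HC GFP-, 55.3, 53.8 and 142 in EC GFP+, and 60.5, 44.6 and 84.7 in EC GFP-. Cxcl12 alone made up 15.6% to 31.2% of this sum in EC GFP+ and 37.4% to 55.7% in EC GFP-, against 2.59% to 9.63% in HC GFP+ and 12.4% to 18.5% in HC GFP-. The sum leaves out Pf4 and Ppbp, ligands with other names. Pf4 had 129, 68.6 and 245 FPKM in HC GFP+ and 200.5, 84.7 and 153 in HC GFP-. In EC it had 38.5, 10.7 and 136 FPKM in GFP+ and 89.8, 56.2 and 195 in GFP-. Pf4 was above Cxcl12 in all but the second EC GFP+ library. Ppbp had 6.5 to 17.9 FPKM in HC and 4.45 to 56.3 in EC. Neither passed any comparison. In the third EC GFP+ library, Ccl9 alone gave 68.4 FPKM of the sum. The heat map of members by library shows Ccl3, Ccl4, Ccl12, Ccl24, Cxcl2 and the receptors Cx3cr1 and Ccr1 brighter in HC than in EC. Cxcr4 is brighter in EC, but it is above Ccr1 in the HC libraries too. The levels of Ccl27a overlapped between the cell types.

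**Figure D1:**
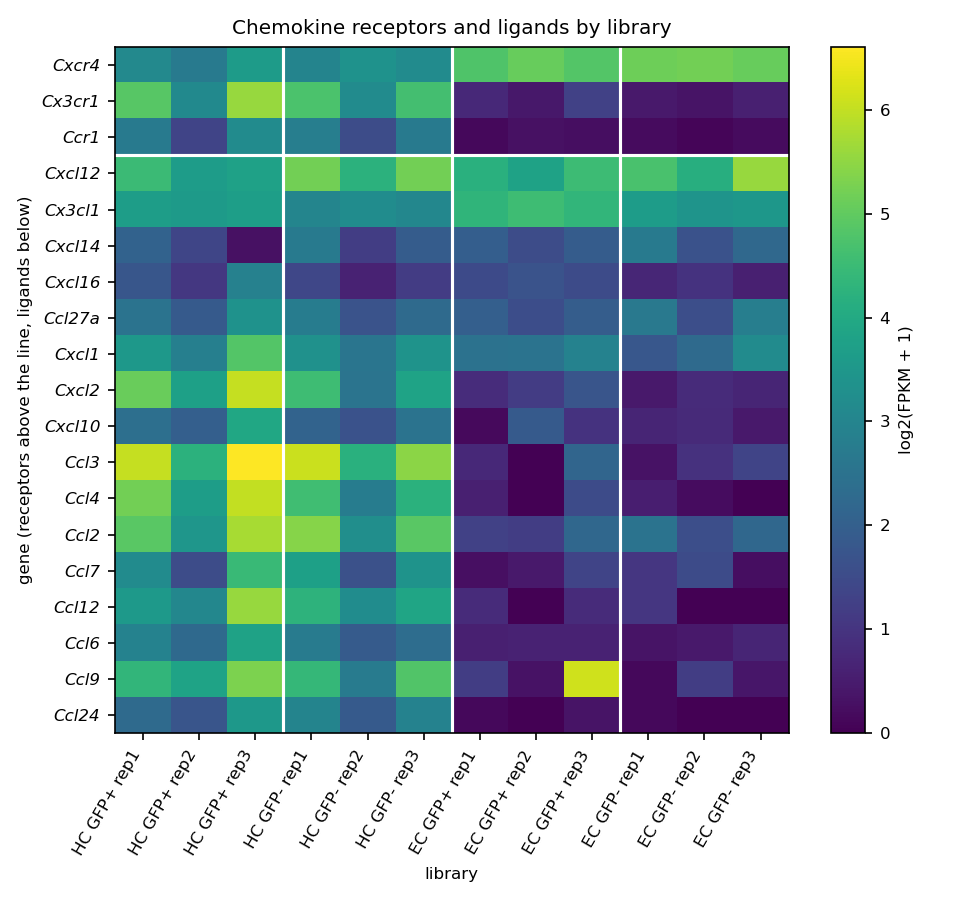
Heat map of log2(FPKM + 1) of 19 tested members (rows) in the 12 libraries (columns, HC GFP+, HC GFP-, EC GFP+ and EC GFP- from left to right). Ccl3 and Cx3cr1 are high in the HC columns, Cxcr4 is higher in the EC columns, and Ccl9 is high in 1 EC GFP+ column.

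The first question the design poses is how HC differ from EC. Between the GFP+ populations, 12 of 20 tested members were higher in HC, against 8.21% of all tested genes, and 2 were lower, against 6.09% (14.3% in either direction). Between the GFP- populations, 9 were higher, against 2.36% of all tested genes, and 2 were lower, against 1.93% (4.29% in either direction). The 9 that were higher between the GFP- populations were also higher between the GFP+ populations. Among them were the ligands Ccl3, Ccl4, Ccl6, Ccl12, Ccl24 and Cxcl2 and the receptors Cx3cr1 and Ccr1. Ccl2, Ccl7 and Cxcl10 passed between the GFP+ populations only, and whether their difference itself depended on GFP was tested with an interaction term, given below, which none passed. Cxcr4 and Cx3cl1 were lower in HC in both. Among the GFP- populations the calls rested on few pools: without the first HC GFP- pool 2 of the 9 passed, Ccl3 and Cx3cr1, and without the third HC GFP- pool or the first EC GFP- pool 5 did, Ccl3, Ccl4, Ccl12, Ccl24 and Cx3cr1. The median log2 change of the 20 members was 2.10 between the GFP+ populations, beside 0.05 over all tested genes, and 1.93 between the GFP- populations, beside 0.01 over all. Members that passed the filter only through their level in HC had to differ in this direction, so these counts and medians describe the 20 and not the whole family. The comparisons used limma on log2(FPKM + 1), whose changes understate those of weakly expressed genes, and an adjusted p of 0.05.

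**Figure D2:**
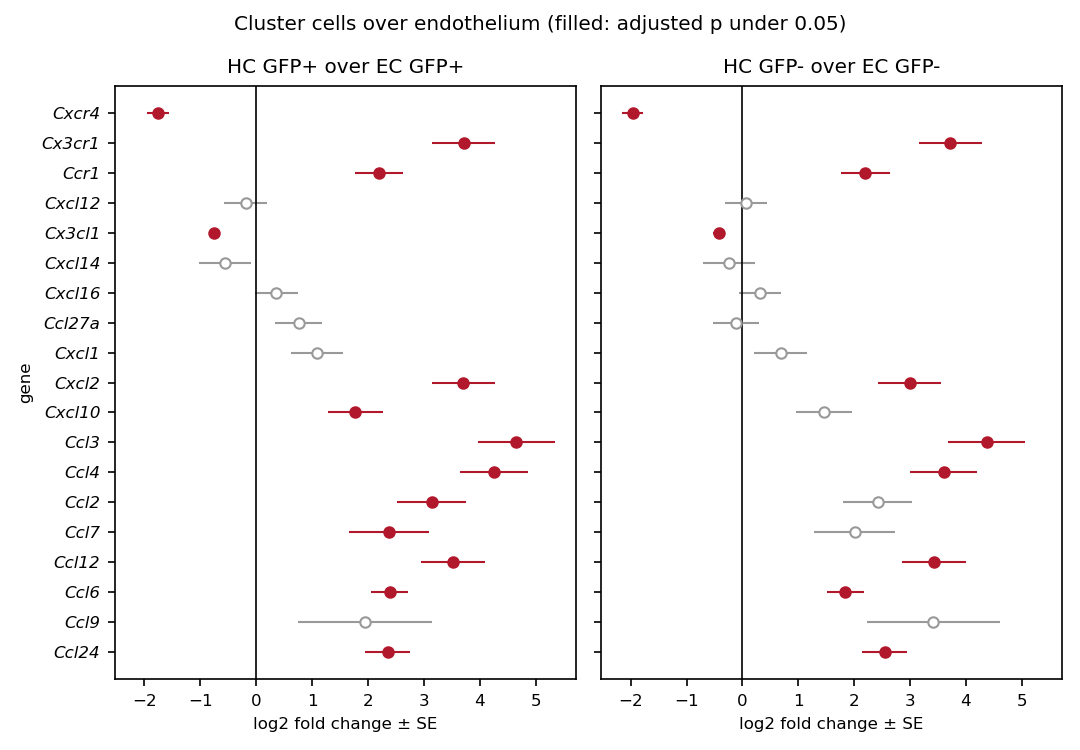
Log2 change of 19 tested members, HC over EC, with bars of 1 SE, between the GFP+ populations and between the GFP- populations. Points to the right of 0 are higher in HC; filled points passed an adjusted p of 0.05, with Ccl3 farthest right (4.66 and 4.37) and Cxcr4 farthest left (-1.76 and -1.96).

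Cxcr4, the receptor of CXCL12, was the main receptor transcript of EC and was lower in HC. Its level was 7.62, 5.57 and 11.2 FPKM in HC GFP+ (8.14 ± 2.87, SD, n = 3) and 6.86, 9.23 and 8.13 in HC GFP- (8.07 ± 1.18). The EC libraries had 26.8, 32.5 and 27.8 FPKM with GFP (29.0 ± 3.03) and 34.4, 35.6 and 32.6 without it (34.2 ± 1.503). No HC library reached the lowest EC library. HC were lower among the GFP+ populations (log2 -1.76 ± 0.19, SE, adjusted p = 0.000215) and among the GFP- populations (log2 -1.96 ± 0.19, adjusted p = 0.000685), and both calls held under every alternative setting run. Cxcr4 made up 90.5% to 94.1% of the summed receptor FPKM of EC GFP+ libraries and 96.0% to 97.2% of that of EC GFP- libraries, against 14.8% to 29.8% in HC GFP+ and 15.3% to 42.4% in HC GFP-. This sum covers the receptors that are members and leaves out atypical receptors such as Ackr3, given below. Every EC GFP+ library lay below every EC GFP- library, but the difference did not pass (adjusted p = 0.46). HC GFP+ and HC GFP- overlapped.

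Ackr3, the atypical receptor that binds and removes CXCL12, is no member of the list by its name. It had 8.38, 7.08 and 10.8 FPKM in HC GFP+, 11.4, 10.9 and 10.4 in HC GFP-, 13.7, 11.2 and 12.3 in EC GFP+, and 17.4, 16.4 and 15.9 in EC GFP-. It was lower in HC than in EC among the GFP+ populations (log2 -0.47 ± 0.13, adjusted p = 0.0321) and among the GFP- populations (log2 -0.56 ± 0.13, adjusted p = 0.0372). These are small changes in the same direction as those of Cxcr4. Both calls were lost with no filter on low values (adjusted p = 0.0504 among GFP+ and 0.0663 among GFP-), and the second with equal library sums (adjusted p = 0.0878). The first was also lost with the GFP+ populations fitted alone (adjusted p = 0.112) and without the first or second HC GFP+ pool or the first or the third EC GFP+ pool, and the second without any 1 GFP- pool, the first HC GFP+ pool, or the first or the third EC GFP+ pool.

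The receptors Cx3cr1 and Ccr1 went the other way. CX3CR1 is the receptor of CX3CL1, CCR1 binds CCL3 and other CC ligands, and both are known from monocytes and macrophages. Cx3cr1 had 28.5, 7.79 and 47.1 FPKM in HC GFP+ and 25.4, 8.11 and 23.6 in HC GFP-, against 0.696, 0.336 and 1.44 in EC GFP+ and 0.364, 0.275 and 0.485 in EC GFP-. Its mean was 33.8-fold higher in HC among the GFP+ populations (log2 3.71 ± 0.56, adjusted p = 0.0015) and 50.9-fold higher among the GFP- populations (log2 3.72 ± 0.56, adjusted p = 0.00714). The second pool of each HC population was lowest in Cx3cr1 and also in the macrophage sum, but still above every EC library. Ccr1 had 5.52, 1.57 and 8.17 FPKM in HC GFP+ and 6.12, 1.89 and 5.52 in HC GFP-, and was at most 0.217 FPKM in any EC library (log2 2.20 ± 0.43 in each comparison, adjusted p = 0.00628 among GFP+ and 0.0189 among GFP-). Cx3cr1 overlaps an annotated gene on the other strand and shares short runs with 10 genes, and the library kit does not mark strand.

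The summed receptor level shows how the composition turned over between the cell types. It came to 47.6, 18.7 and 76.0 FPKM in HC GFP+, 44.9, 21.8 and 43.1 in HC GFP-, 28.5, 34.7 and 30.7 in EC GFP+, and 35.8, 36.6 and 33.9 in EC GFP-. HC libraries with a high sum were those with much Cx3cr1, while the EC sums lay between 28.5 and 36.6 FPKM. The total of receptors thus overlapped between HC and EC. The largest single receptor in the sum, which leaves out atypical receptors, was Cx3cr1 in 5 of the 6 HC libraries. It was Cxcr4 in the other HC library and in all EC libraries.

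**Figure D3:**
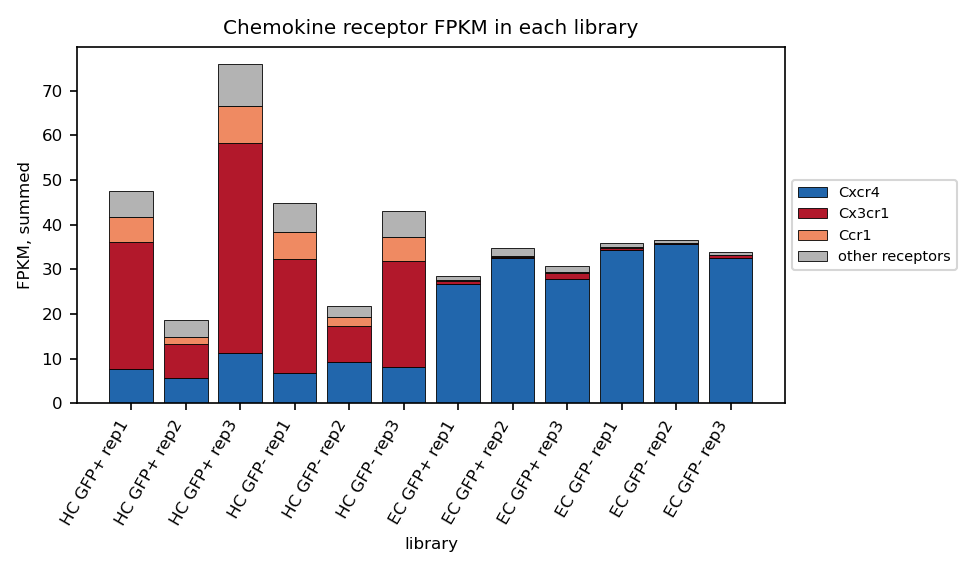
Stacked bars of receptor FPKM per library for Cxcr4, Cx3cr1, Ccr1 and the sum of the other member receptors, without atypical receptors such as Ackr3. Cxcr4 fills over 90% of each EC bar, and Cx3cr1 is the largest piece of the taller HC bars.

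Cx3cl1, the membrane-tethered ligand of CX3CR1, was the only member whose difference by GFP passed the threshold, and it passed in both cell types. Its level was 11.8, 11.1 and 11.9 FPKM in HC GFP+ (11.6 ± 0.456) against 6.996, 8.27 and 7.38 in HC GFP- (7.55 ± 0.654). In EC it was 19.0, 22.4 and 19.2 FPKM in GFP+ (20.2 ± 1.90) against 11.5, 9.66 and 10.3 in GFP- (10.5 ± 0.907). The GFP+ and GFP- libraries did not overlap in either cell type. Among HC, GFP+ cells had a 1.54-fold higher mean (log2 0.56 ± 0.10, adjusted p = 0.00916). Among EC the ratio was 1.92 (log2 0.88 ± 0.10, adjusted p = 0.00026), and both calls held under every alternative setting run. The effect of GFP was smaller in HC by 0.32 ± 0.14 on the log2 scale, which did not pass (adjusted p = 0.418). Cx3cl1 was also lower in HC than in EC, by log2 -0.75 ± 0.10 among the GFP+ populations (adjusted p = 0.000825) and by log2 -0.43 ± 0.10 among the GFP- populations (adjusted p = 0.0391). The last call was lost under 11 of 19 alternative settings: scaling of the libraries to an equal sum (log2 -0.30, adjusted p = 0.0842), no filter, the replicate block, a fit of the GFP- populations alone, and without the first pool of any population or the third of HC GFP-, EC GFP+ or EC GFP-. Within each GFP class, ligand and receptor of this pair therefore stood opposite, with Cx3cl1 higher in EC and Cx3cr1 higher in HC. Across the classes this did not hold for Cx3cl1, as HC GFP+ (mean 11.6) overlapped EC GFP- (mean 10.5).

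Markers of several cell types moved with GFP in the same libraries. Of the 8 progenitor markers, 5 were called higher in HC GFP+ and 3 in EC GFP+, against 2.98% and 6.96% of all tested genes. Of the granulocyte markers, 4 were tested and 2 of them were called higher in HC GFP+, against 2.98% of all tested genes. Of the 10 mesenchyme markers, 0 in HC and 1 in EC were called lower in GFP+. The shares of all tested genes were 1.28% and 6.51%, so these counts are near them. At an unadjusted p under 0.05, 6 in each cell type were lower, a level at which all tested genes were not counted. The endothelial sum was higher in EC GFP+ than in EC GFP- in every library. There 6 of its 8 genes were called higher, against 6.96% of all tested genes. In HC, 1 of 8 was, against 2.98%. The 6 erythroid markers summed to 775 to 1064 FPKM in HC GFP+ against 5826 to 9031 in HC GFP-, and to 874 to 2250 in EC GFP+ against 3144 to 7239 in EC GFP-. All 6 were called lower in GFP+ cells of both types, against 1.28% of all tested genes in HC and 6.51% in EC. Their part in the change of Cx3cl1 was not tested.

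**Figure D4:**
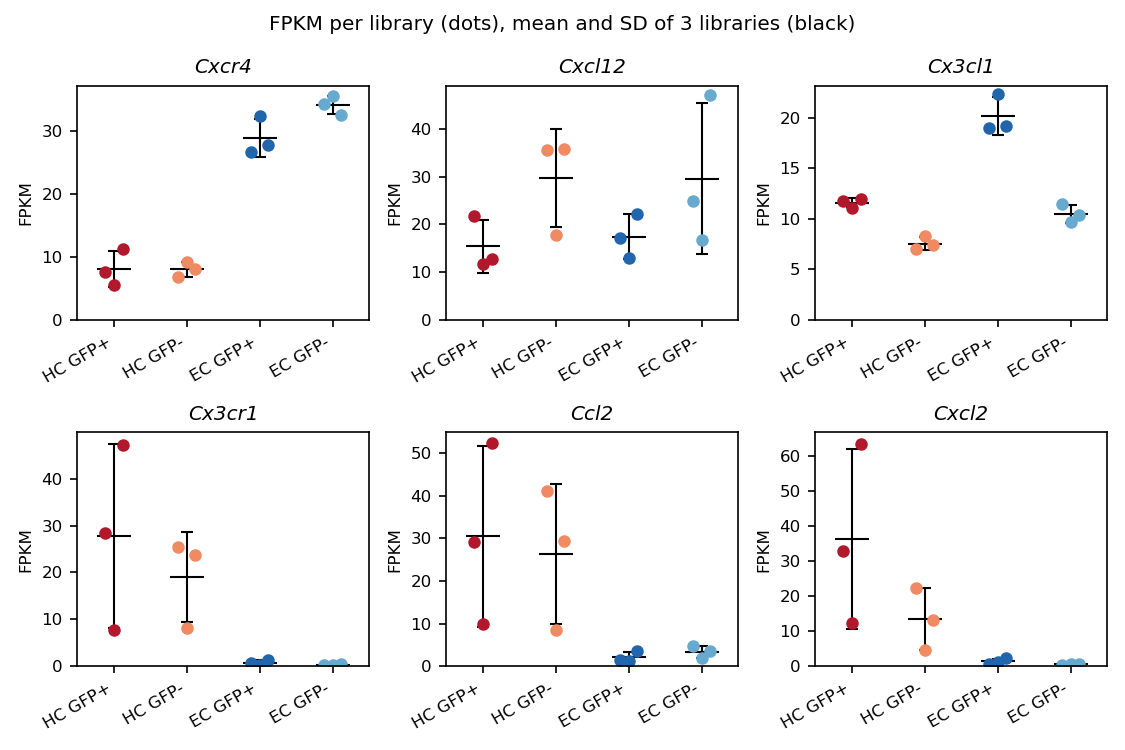
FPKM of Cxcr4, Cxcl12, Cx3cl1, Cx3cr1, Ccl2 and Cxcl2 in each library (dots) with the mean and SD of 3 libraries (black), by population in the order HC GFP+, HC GFP-, EC GFP+, EC GFP-. Cxcr4 separates EC (26.8 to 35.6 FPKM) from HC (5.57 to 11.2), Cx3cl1 separates GFP+ from GFP- within each cell type, and Cxcl12 overlaps between all populations.

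Cxcl12, the homeostatic ligand of CXCR4, was expressed in every library and passed no test. Its level was 21.8, 11.7 and 12.8 FPKM in HC GFP+ (15.4 ± 5.54) against 35.5, 17.8 and 35.7 in HC GFP- (29.7 ± 10.3). In EC it was 17.2, 12.9 and 22.2 FPKM in GFP+ (17.5 ± 4.65) against 25.0, 16.7 and 47.2 in GFP- (29.6 ± 15.8). The change with GFP was log2 -0.89 ± 0.38 in HC (adjusted p = 0.263) and log2 -0.64 ± 0.38 in EC (adjusted p = 0.305), and the groups overlapped in both. The 10 markers of mesenchyme and smooth muscle varied with it: they summed to 619, 284 and 368 FPKM in HC GFP+ against 1453, 486 and 1450 in HC GFP-, and to 377, 274 and 554 in EC GFP+ against 1043, 325 and 1390 in EC GFP-. Within each of the 4 populations the second pool was lowest in mesenchyme markers and in Cxcl12. The part of these markers in the level of Cxcl12 was not tested, and none of the 10 was listed at 0 in any library.

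The inflammatory CC ligands formed the largest group of members higher in HC. Most lie side by side on chromosome 11 in 2 arrays, 1 with Ccl2, Ccl7 and Ccl12 and the other with Ccl9, Ccl6, Ccl3 and Ccl4, interspersed with members that were hardly expressed. Ccl3 and Ccl4 encode ligands that attract macrophages and other leukocytes. Ccl3 had 63.7, 18.1 and 96.3 FPKM in HC GFP+ and 66.7, 17.2 and 42.9 in HC GFP-, against 0.694, 0 and 3.44 in EC GFP+ and 0.242, 0.911 and 1.58 in EC GFP-. Every HC library was above every EC library, and the second pools were again the lowest of HC. It was higher in HC by log2 4.66 ± 0.69 among the GFP+ populations (adjusted p = 0.00136) and by log2 4.37 ± 0.69 among the GFP- populations (adjusted p = 0.00857, 46.5-fold in the mean). Ccl4 had 35.4, 11.9 and 63.1 FPKM in HC GFP+ and 22.9, 5.87 and 17.5 in HC GFP-, against at most 1.87 FPKM in EC (log2 4.25 ± 0.60, adjusted p = 0.00109 among GFP+; log2 3.61 ± 0.60, adjusted p = 0.00992 among GFP-). Ccl3 and its receptor Ccr1 were higher in the same libraries. Ccl6 had 3.798 to 13.0 FPKM in HC GFP+ and 2.72 to 5.68 in HC GFP-, against at most 0.6 FPKM in EC (log2 2.39 ± 0.33, adjusted p = 0.000986 among GFP+; log2 1.84 ± 0.33, adjusted p = 0.0133 among GFP-). Ccl24, an eosinophil-attracting ligand encoded outside these arrays, had 2.34 to 10.5 FPKM in HC GFP+ and 2.67 to 6.90 in HC GFP-, against at most 0.272 FPKM in EC (log2 2.35 ± 0.41, adjusted p = 0.00321 among GFP+; log2 2.54 ± 0.41, adjusted p = 0.00888 among GFP-).

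Ccl2, Ccl7 and Ccl12 encode ligands of CCR2, which draw monocytes. Ccl2 had 29.2, 10 and 52.2 FPKM in HC GFP+ and 41.1, 8.61 and 29.4 in HC GFP-, against 1.43, 1.29 and 3.59 in EC GFP+ and 4.77, 1.99 and 3.60 in EC GFP-. HC and EC did not overlap in either GFP class. Its mean was 14.5-fold higher in HC among the GFP+ populations (log2 3.14 ± 0.62, adjusted p = 0.00639), and among the GFP- populations the difference was log2 2.42 ± 0.62, just outside the threshold (adjusted p = 0.0523). That value passed under 7 of the alternative settings. Ccl12 had 10.8, 7.39 and 46.7 FPKM in HC GFP+ and 18.4, 8.19 and 13.7 in HC GFP-, against at most 1.08 FPKM in EC, and passed in both comparisons (log2 3.52 ± 0.57, adjusted p = 0.00232; log2 3.43 ± 0.57, adjusted p = 0.00992). Ccl7 ran from 1.87 to 21.3 FPKM in HC and from 0.181 to 1.83 in EC. It passed narrowly among the GFP+ populations (log2 2.37 ± 0.72, adjusted p = 0.0493), but not with no filter (adjusted p = 0.101), with the stricter filter or quantile normalization (adjusted p = 0.0534 each), with the libraries of these 2 populations fitted alone (adjusted p = 0.0839), without any 1 of the EC pools, or without the first or the third pool of HC GFP+ or of HC GFP- (adjusted p between 0.0513 and 0.162). Ccr2, the receptor of these 3 ligands, stayed below the filter, with a highest value of 0.781 FPKM in the third HC GFP+ library.

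**Figure D5:**
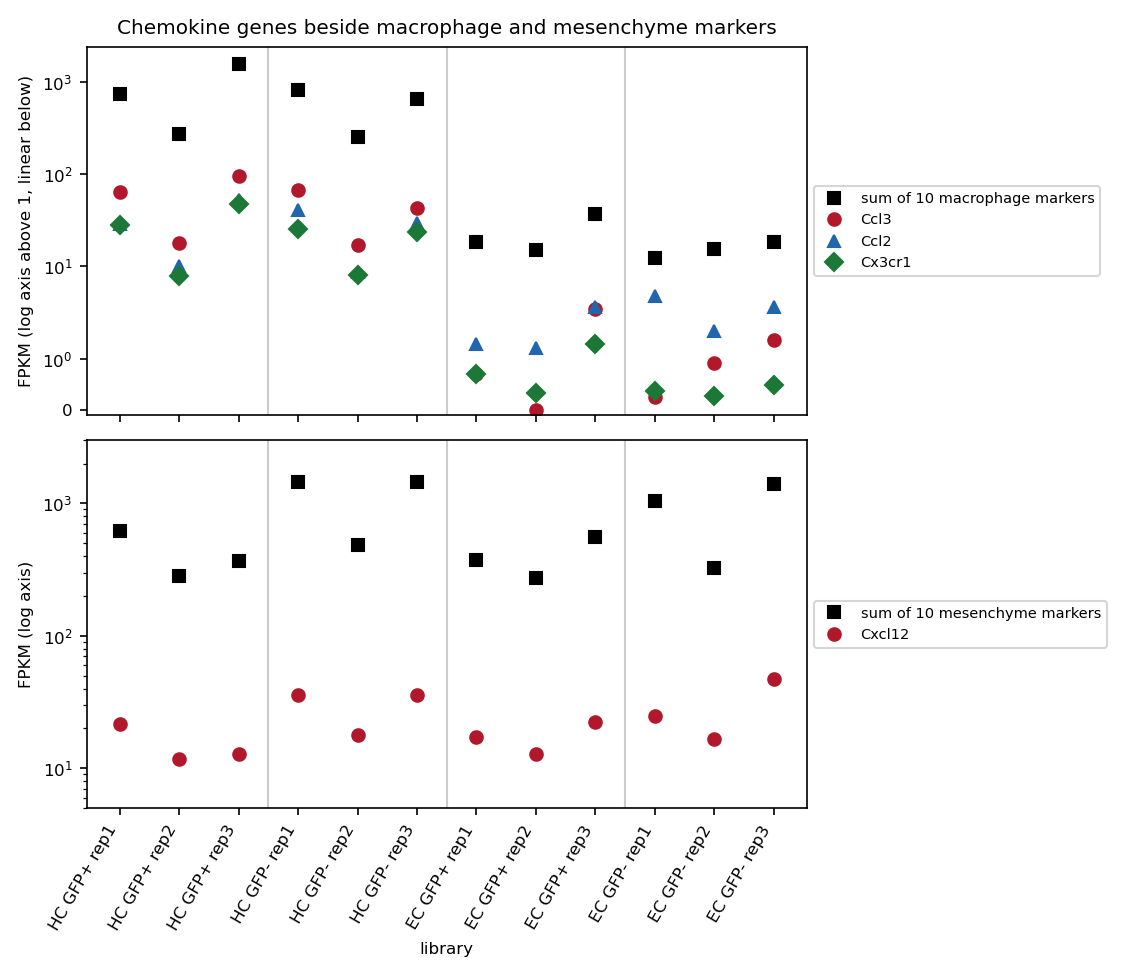
Upper panel: FPKM per library of Ccl3, Ccl2 and Cx3cr1 beside the sum of 10 macrophage markers. Lower panel: Cxcl12 beside the sum of 10 mesenchyme markers, all on log axes (linear below 1 in the upper panel). In HC the second pools are lowest in all 4 series of the upper panel, and every EC library lies below every HC library.

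Ccl9 was the exception among the CC ligands. It had 19.3, 13.3 and 38.3 FPKM in HC GFP+ and 19.96, 5.77 and 27.3 in HC GFP-, against 1.32, 0.244 and 68.4 in EC GFP+ and 0.0964, 1.31 and 0.309 in EC GFP-. The third EC GFP+ library held the highest value of all 12, and the other 5 EC libraries were at most 1.32 FPKM. Neither comparison passed (log2 1.94 ± 1.19, adjusted p = 0.327, among GFP+ and log2 3.41 ± 1.19, adjusted p = 0.143, among GFP-). Without that 1 library both did (log2 3.73, adjusted p = 0.00583 among GFP+; adjusted p = 0.0154 among GFP-). The same library also had the highest sum of the 7 megakaryocyte and platelet markers, 58.8 FPKM against 7.18 and 15.2 in the other EC GFP+ libraries, and the highest macrophage sum of EC. The megakaryocyte and platelet sum was also 28.2 and 42.9 FPKM in the first and the third EC GFP- libraries, where Ccl9 was 0.0964 and 0.309 FPKM. Their part in the Ccl9 value was not tested. Transcripts of Ccl9 share runs of 50 bases with 250 other genes, so its level is uncertain.

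The neutrophil-attracting CXC ligands, which signal through CXCR2, lie next to each other on chromosome 5. Cxcl2 had 33.0, 12.5 and 63.7 FPKM in HC GFP+ and 22.4, 4.77 and 13.4 in HC GFP-, against 0.776, 1.27 and 2.32 in EC GFP+ and 0.376, 0.747 and 0.604 in EC GFP-. It was higher in HC by log2 3.71 ± 0.56 among the GFP+ populations (adjusted p = 0.0016) and by log2 2.99 ± 0.56 among the GFP- populations (adjusted p = 0.0162). Within HC it was higher in GFP+ by log2 1.31 ± 0.56, which did not pass (adjusted p = 0.265). In EC every GFP+ library lay above every GFP- library, but that difference did not pass either (log2 0.60 ± 0.56, adjusted p = 0.534). Cxcl2 shares 126 runs of 50 bases with Cxcl3, so their reads could be split. Cxcl1 was expressed in both cell types: 10.6, 6.23 and 27.3 FPKM in HC GFP+ and 9.13, 4.88 and 9.52 in HC GFP-, against 4.65, 4.70 and 6.68 in EC GFP+ and 2.44, 3.85 and 8.02 in EC GFP-. It passed no comparison. Cxcl10, an interferon-induced ligand of CXCR3 from the same chromosome, had 4.36, 2.99 and 14.2 FPKM in HC GFP+ and 3.26, 2.19 and 4.70 in HC GFP-, against 0.131, 2.65 and 0.963 in EC GFP+ and 0.609, 0.716 and 0.357 in EC GFP-. It passed among the GFP+ populations (log2 1.78 ± 0.50, adjusted p = 0.0355), but not with no filter (adjusted p = 0.0737), with these populations fitted alone (adjusted p = 0.112), or without the first or the third pool of HC GFP+, the first or the third of EC GFP+, or the first of HC GFP- or EC GFP- (adjusted p between 0.0507 and 0.128). Its exons overlap those of Art3 on the other strand.

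Promoters are shown next for neighbouring ligands, such as Cxcl1 and Cxcl2, and for members that passed in opposite directions. The promoters of 14 of the 20 tested members were at hand from RefSeq (GRCm38.p6, 250 bases before to 50 after the gene start), a build other than the mm9 of the expression values. They were searched on both strands for the consensus of NF-kB, for GAGGAA, the core bound by PU.1 and other ETS factors of myeloid cells, and for TGANTCA, bound by AP-1. Among all 32851 promoters, 8.46% held the first, 28.3% the second and 7.81% the third. Among the 14 members, 6 held the first (Cxcl1, Cxcl2, Cxcl10, Ccl9, Ccr1 and Ccl27a), 6 the second and 3 the third, with no overlap between matches to different motifs. The shares are per promoter, whereas a member was counted if any of its promoters matched. Ccl27a had several promoters, so the counts and shares are not in the same unit. The 6 promoters shown here, 5′ to 3′ on the strand of the gene with matches in capitals, are those of the 3 CXC ligands, of the ligand farthest above EC, and of the 2 members lower in HC. They lie at chr5:90890995-90891294 (Cxcl1, plus strand), chr5:90903649-90903948 (Cxcl2, plus), chr5:92348840-92349139 (Cxcl10, minus), chr11:83649329-83649628 (Ccl3, minus), chr8:94771930-94772229 (Cx3cl1, plus) and chr1:128592250-128592549 (Cxcr4, minus).
Cxcl1: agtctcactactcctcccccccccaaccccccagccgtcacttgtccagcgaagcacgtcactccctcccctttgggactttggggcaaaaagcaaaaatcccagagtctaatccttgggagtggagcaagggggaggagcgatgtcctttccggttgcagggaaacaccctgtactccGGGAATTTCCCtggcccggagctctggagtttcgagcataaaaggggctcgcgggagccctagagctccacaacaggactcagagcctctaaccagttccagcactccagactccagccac
Cxcl2: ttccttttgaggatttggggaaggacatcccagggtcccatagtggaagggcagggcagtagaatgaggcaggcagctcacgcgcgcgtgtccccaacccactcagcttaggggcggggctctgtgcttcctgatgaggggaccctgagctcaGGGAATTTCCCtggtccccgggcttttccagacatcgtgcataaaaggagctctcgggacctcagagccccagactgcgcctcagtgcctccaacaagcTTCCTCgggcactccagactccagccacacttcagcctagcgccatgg
Cxcl10: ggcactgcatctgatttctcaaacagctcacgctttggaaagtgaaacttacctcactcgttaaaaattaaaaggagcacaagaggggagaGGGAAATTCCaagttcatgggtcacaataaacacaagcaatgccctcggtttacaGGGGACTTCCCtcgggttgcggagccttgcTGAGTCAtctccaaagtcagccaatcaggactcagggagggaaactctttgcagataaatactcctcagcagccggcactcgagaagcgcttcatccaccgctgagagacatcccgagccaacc
Ccl3: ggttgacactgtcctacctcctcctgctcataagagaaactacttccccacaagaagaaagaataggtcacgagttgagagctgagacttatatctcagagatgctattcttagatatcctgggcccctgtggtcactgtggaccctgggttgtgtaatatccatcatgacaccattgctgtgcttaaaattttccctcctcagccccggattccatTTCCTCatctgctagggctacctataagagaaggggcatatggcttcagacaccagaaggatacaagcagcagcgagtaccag
Cx3cl1: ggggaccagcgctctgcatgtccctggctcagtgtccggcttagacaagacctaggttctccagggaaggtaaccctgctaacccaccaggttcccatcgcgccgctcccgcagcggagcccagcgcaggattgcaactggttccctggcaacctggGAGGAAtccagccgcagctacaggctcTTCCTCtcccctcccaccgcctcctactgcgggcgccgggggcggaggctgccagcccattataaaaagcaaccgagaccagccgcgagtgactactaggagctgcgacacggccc
Cxcr4: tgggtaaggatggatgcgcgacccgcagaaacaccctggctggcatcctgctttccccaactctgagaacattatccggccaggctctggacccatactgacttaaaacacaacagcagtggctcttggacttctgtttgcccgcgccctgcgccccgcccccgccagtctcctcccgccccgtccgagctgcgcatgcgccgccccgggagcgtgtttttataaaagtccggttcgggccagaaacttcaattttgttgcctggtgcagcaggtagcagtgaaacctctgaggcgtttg

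Cxcl1 and Cxcl2 carried the same overlapping pair of NF-kB matches, GGGAATTTCC and GGAATTTCCC. The pair began 71 bases before the start of Cxcl1 and 97 bases before that of Cxcl2. The changes of Cxcl1 and Cxcl2 were not tested against each other. Cxcl10 held GGGAAATTCC, which begins 159 bases before its start, an overlapping pair from 104 bases before it, and the AP-1 match TGAGTCA from 74 bases before it. Ccl3 held TTCCTC, the ETS core on the other strand, from 33 bases before its start. Cx3cl1, which was lower in HC, held the core on each strand, from 93 and from 66 bases before its start, and the window of Cxcr4 held none of the 3. A match describes letters only and is no evidence of binding.

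The other 3 tested ligands, Cxcl16, Cxcl14 and Ccl27a, passed no comparison. Cxcl16, a membrane-tethered ligand of CXCR6, had 2.43, 1.09 and 6.49 FPKM in HC GFP+ against 1.63, 0.563 and 1.27 in HC GFP-. In EC it had 1.78, 2.20 and 1.84 FPKM in GFP+ against 0.629, 0.958 and 0.499 in GFP-, where the groups did not overlap. The change with GFP was log2 0.84 ± 0.38 in HC (adjusted p = 0.285) and log2 0.80 ± 0.38 in EC (adjusted p = 0.19). It passed in EC only with the EC libraries fitted alone (adjusted p = 0.04), and its exons overlap those of Zmynd15 on the other strand. Cxcl14, a ligand found in many epithelia and fibroblasts, ranged from 0.228 to 5.55 FPKM in HC and from 1.89 to 5.42 in EC. Ccl27a, known as a skin-homing ligand, ranged from 2.23 to 9.30 FPKM in HC and from 1.93 to 6.12 in EC. It overlaps Il11ra1 on the other strand and shares sequence with 5 genes, so its level is uncertain.

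The second question of the design is how GFP+ cells differ from GFP- cells. In HC, 1 of 20 tested members was higher in GFP+, against 2.98% of all tested genes, and 0 were lower, against 1.28% (4.26% in either direction). At an unadjusted p under 0.05 these counts were 3 and 1. In EC, 1 of 20 was higher in GFP+, against 6.96% of all tested genes, and 0 were lower, against 6.51% (13.5% in either direction). There the counts at an unadjusted p under 0.05 were 1 and 0. All tested genes were not counted at that unadjusted level in any comparison. The member past the adjusted threshold was Cx3cl1 each time. The median log2 change of the 20 was 0.35 in HC, beside 0.00 over all genes, and 0.12 in EC, beside -0.03 over all. The 12 members that were higher in HC than in EC were not shown to differ between HC GFP+ and HC GFP-, and their ranges overlapped. For instance, Ccl3 was 18.1 to 96.3 FPKM in HC GFP+ and 17.2 to 66.7 in HC GFP-. With 3 pools whose values spread this widely, a difference of modest size would not be detectable. For 0 of 20 members did limma call the effect of GFP in HC different from that in EC, against 0.527% of all tested genes (0.188% higher and 0.339% lower), and 1 of 20, Cx3cl1, had an unadjusted p under 0.05.

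The remaining 32 members, 18 ligands and 14 receptors, did not pass the filter. Of these, 5 were listed at 0 in all 12 libraries (Ccl1, Ccl26, Ccl28, Ccr6 and Cxcr1) and 27 were above 0 somewhere. Just 4 reached 1 FPKM, each in a single library: Ccl17 with 1.47, Cxcl3 with 1.51 and Cxcr3 with 1.22, all in the third HC GFP+ pool, and Cxcl13 with 1.20 in the third EC GFP- pool. Just below came Ccl22 with a highest value of 0.973 FPKM, Cxcr2 with 0.838 and Ccr2 with 0.781. The receptors of lymphocyte homing were lower still, at most 0.406 FPKM for Ccr7, 0.201 for Ccr9 and 0.167 for Cxcr5. Of their ligands, Ccl19 reached 0.0394 FPKM and Ccl25 0.142. Ccl5, an attractant of T cells, reached 0.392 FPKM, and the CXCR3 ligands Cxcl9 and Cxcl11 reached 0.0553 and 0.138 FPKM. The other highest values were 0.621 for Ccr10, 0.607 for Cxcl5, 0.537 for Ccl20, 0.421 for Ccl8, 0.382 for Ccl11, 0.308 for Cxcl17, 0.178 for Ccr4, 0.167 for Ccr8, 0.134 for Cxcr6, 0.119 for Xcr1, 0.105 for Cxcl15 and 0.0993 for Ccr3. Cxcr2, the receptor of Cxcl2, and Ccr2, the receptor of Ccl2, thus stayed under 1 FPKM in every library, while Ccr1, a receptor of Ccl3, and Cx3cr1, the receptor of Cx3cl1, passed the filter. With no filter, Cxcr3 was also called higher in HC (log2 0.79 in both comparisons) and Cxcr2 among the GFP+ populations (log2 0.55).

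The rest of the pathway, 57 listed genes for atypical receptors, ligands with other names and signalling, of which 51 were tested, held members that differed by cell type. Between the GFP+ populations 19 of 51 were higher in HC, against 8.21% of all tested genes, and 5 were lower, against 6.09%. Some genes, such as Dock2 and Plcb2, were below 1 FPKM in every EC library and passed the filter only through HC. Such genes had to differ in this direction, so the counts describe the 51 and not the whole list. Rac2, the Rac GTPase of blood cells, averaged 28.3 FPKM in HC GFP+ against 0.992 in EC GFP+ (log2 3.84 ± 0.37, adjusted p = 0.000105). Dock2, its exchange factor in chemotaxis, averaged 9.45 against 0.577 FPKM (log2 2.72 ± 0.26), and Plcb2, a phospholipase driven by G protein subunits, averaged 7.44 against 0.568 FPKM (log2 2.43 ± 0.23). Was, a regulator of actin assembly, rose by log2 2.60 ± 0.31. Sdc1, a heparan sulfate proteoglycan, was lower in HC (log2 -1.51 ± 0.17), and so was Rgs3, which ends G protein signals (log2 -0.69 ± 0.08).

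Between the GFP- populations 5 of the 51 were higher in HC, against 2.36% of all tested genes, and 4 were lower, against 1.93%. The same limit of the filter holds for these counts. Rac2 (log2 3.47 ± 0.37, adjusted p = 0.00122), Was (log2 1.96 ± 0.31) and Dock2 (log2 1.64 ± 0.26) were among those higher in HC. Without the first HC GFP- pool, Was and Dock2 no longer passed (adjusted p = 0.0504 and 0.0519). These genes are used by most blood cells. The macrophage markers given above were higher in the same libraries. Of the 8 progenitor markers, 3 were higher and 1 was lower between these GFP- populations. The part of either list in these changes was not tested.

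Some signalling genes of this list were also called by GFP. In HC, 6 of 51 were higher in GFP+, against 2.98% of all tested genes, and 3 were lower, against 1.28%. Ptk2b, a tyrosine kinase downstream of chemokine receptors, rose by log2 2.40 ± 0.25 in HC GFP+, Plcb2 by log2 1.74 ± 0.23 (means 7.44 FPKM in HC GFP+ and 1.55 in HC GFP-) and Dock2 by log2 1.31 ± 0.26, a call lost without the third HC GFP+ pool (adjusted p = 0.0721), with the pseudocount of 0.1 (adjusted p = 0.147) and with the HC libraries fitted alone (adjusted p = 0.0512). Gng2, a G protein gamma subunit, was lower in HC GFP+ (log2 -0.76 ± 0.12). In EC, 6 of 51 were higher in GFP+ (11.8%), against 6.96% of all tested genes, and 4 were lower (7.84%), against 6.51%. These EC shares lie close to those of all genes, so the calls in EC describe single genes and not the list. Sdc1 averaged 69.9 FPKM in EC GFP+ against 37.6 in EC GFP- (log2 0.90 ± 0.17), and Rgs2, a regulator of G protein signalling, rose by log2 0.43 ± 0.10, a call lost without the first EC GFP- pool (adjusted p = 0.0527). Gng2 (log2 -0.65 ± 0.12), Mif, an atypical ligand of CXCR4 (log2 -0.66 ± 0.12), Rgs16 (log2 -0.61 ± 0.12) and the kinase gene Lyn (log2 -0.47 ± 0.09) were lower in EC GFP+. Scaled to an equal sum, Rgs16 and Lyn no longer passed (adjusted p = 0.0532 and 0.0911). For 0 of the 51 did the GFP effect pass as different between HC and EC (limma), against 0.527% of all tested genes. At an unadjusted p under 0.05 there were 13. All tested genes were not counted at that level, so the 13 cannot be judged against a share.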

How the data were processed

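The authors deposited 1 FPKM value for each gene and library. The submitters' processing notes name build mm9 and the tools DESeq, edgeR, featureCounts and Cufflinks, without roles; aligner, annotation and strand setting are not given there. FPKM are relative within a library and hold no read numbers, so no count test was run, and an exact 0 may be a failed estimate. Genes with FPKM of at least 1 in at least 3 of 12 libraries (13278 of 33531) were tested on the log2(FPKM + 1) scale (limma 3.58.1, R 4.3.3): 1 model of 4 group means, 8 residual degrees of freedom, empirical Bayes with intensity trend, two-sided tests, and Benjamini-Hochberg adjustment over all tested genes of each of 5 comparisons (adjusted p threshold 0.05). The comparisons share libraries, and p-values measure the spread between pools. Scripts were tested on simulated data. Alternatives were a pseudocount of 0.1, no filter, a mean FPKM of at least 5, equal library sums, quantile normalization, the compared groups alone, a replicate block and each library left out. Named were all members past the threshold, Cxcr4, Cxcl12, Ccl3 and Ccl2, their partners, and at most 6 other pathway genes per comparison by smallest p; other members are given by level, 1 item is not reported here, and Cxcl1, Cxcl16 and Ccl9 by library. The members and lists were chosen with earlier results of these data known. Sequence overlaps used GENCODE M21 transcripts and promoters RefSeq GRCm38.p6; no coordinates were converted.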

Additional observations from a re-analysis of the deposited data

How the results depend on the processing

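The 27 called member changes were recomputed under at most 19 alternative settings each, which gave 504 values in all. Of these values, 452 kept the call, 52 kept the direction without passing, and 0 reversed. Between HC GFP+ and EC GFP+, 12 of the 14 calls held under every setting in which the member was tested, against 3 of 11 between HC GFP- and EC GFP- (Ccl3, Cx3cr1 and Cxcr4) and both calls of Cx3cl1 by GFP. With the stricter filter, 363 genes passed between HC GFP+ and HC GFP- (566 in the fit reported), 6 members were higher in HC GFP+ than in EC GFP+ because Ccl7 no longer passed and the other members that lost their call were not tested, and 39 genes passed in the difference of GFP effects (70 as reported; 39 also with the pseudocount of 0.1, and 148 with equal library sums). With only the compared groups, 939 genes passed between EC GFP+ and EC GFP- (1789 as reported), with 2 members higher, Cx3cl1 and Cxcl16, and 284 passed between HC GFP- and EC GFP- (569 as reported; 332 with no filter). Just 1 member, Cxcr4, was lower between HC GFP- and EC GFP- with no filter, equal sums, the replicate block or the groups alone. The causes were not tested. With each library left out, 321 to 654 genes passed between HC GFP+ and HC GFP-, 1004 to 2203 between EC GFP+ and EC GFP-, 1261 to 2090 between HC GFP+ and EC GFP+, 91 to 698 between HC GFP- and EC GFP-, and 23 to 77 in the difference of effects; 10 to 12 members were higher in HC among GFP+, 2 to 10 were higher and 1 to 2 lower among GFP-. Equal sums moved the median of all genes to log2 0.14 in the EC GFP comparison and between the GFP- populations, and the share of calls that were higher to 87% and 81.8% (51.6% and 55% as reported); quantile normalization moved it to 47.1% between the GFP+ populations (57.4% as reported). Replicate numbers are shared by the groups, but the labels give them no meaning and not every same-numbered pair deviated together: over 18 pairs the correlation of deviations ran from -0.0845 to 0.27, with 4 above 0.1, of which 3 were pairs of second pools (0.27, 0.2 and 0.112). With the replicate block, Cxcl1 was also higher in HC GFP+ than in EC GFP+ (log2 1.09, adjusted p = 0.0455) and Ccl2 in HC GFP- than in EC GFP- (adjusted p = 0.00829), and Cx3cl1 no longer passed there (adjusted p = 0.0635). Depth is unknown, so no floor can be given for values near 0.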
